A study of Mus musculus with 6 samples.

Results

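Expression of the Bcl2 family was followed across hematopoietic stem and progenitor cells with and without ING4, a chromatin-associated tumor suppressor. The 10 genes were chosen as a list by name, Bcl2, Bcl2l1, Mcl1, Bcl2l2, Bak1, Bok, Bcl2l11, Bad, Bid and Bmf, and each was found once among the 49315 genes of the count tables. Bulk RNA-seq covered 6 libraries, 1 for each of LT-HSCs, ST-HSCs and MPPs in WT and in ING4-/- mice. Groups of 3 values per genotype are given throughout in that order of populations. LT-HSCs were sorted as LSK CD48-CD34-CD150+ cells and ST-HSCs as LSK CD48-CD34+CD150+ cells, where LSK denotes lineage-negative, Sca-1-positive, c-Kit-positive marrow cells. MPPs, multipotent progenitors, were LSK CD48- cells with CD34 but without CD150. The WT mice were young adult C57BL/6 controls, and the ING4-/- mice are not described as conditional, with no Cre driver or transgene named. The age of the ING4-/- animals behind these libraries and their strain background were not found in the sources used here. Each library came from marrow pooled over several animals, so each genotype and population was measured in 1 library, and the 3 populations stood in for replicates of a genotype. No p-value below therefore measures the spread among animals. Those of the genotype comparison without a block measure the spread among the 3 populations. Those with population as a block, and those between MPPs and LT-HSCs, measure departures from additive effects of genotype and population.

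Bcl2 family proteins decide whether the outer mitochondrial membrane is permeabilized. The pro-survival members Bcl2, Bcl-xL (Bcl2l1), Mcl1 and Bcl-w (Bcl2l2) hold the pore-forming effectors Bak, Bok and Bax in check, and BH3-only proteins such as Bim (Bcl2l11), Bad, Bid and Bmf bind the pro-survival members or activate the effectors. Mcl1 is known to be required for the survival of hematopoietic stem cells. Much of the control in this family acts on the protein, by phosphorylation of Bad, cleavage of Bid and turnover of Mcl1, and Bcl2l1 and Mcl1 also give splice forms of opposite activity, none of which gene counts can show.

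The promoters of 3 members called between genotypes are shown, with Bad and Bid called higher and Bmf called lower in ING4-/-. Bcl2l1 was also called higher and is not printed. Each sequence is the 250 bases before a RefSeq transcript start in GRCm38.p6, written 5′ to 3′ on the strand of the gene. Capitals mark the GC box, searched as GGGCGG on both strands, so that a match on the opposite strand is printed as CCGCCC. Bad lies on the plus strand at chr19:6941611-6941860, Bid on the minus strand at chr6:120916825-120917074 and Bmf on the minus strand at chr2:118549687-118549936, in each case the outermost window of the gene.

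Bad: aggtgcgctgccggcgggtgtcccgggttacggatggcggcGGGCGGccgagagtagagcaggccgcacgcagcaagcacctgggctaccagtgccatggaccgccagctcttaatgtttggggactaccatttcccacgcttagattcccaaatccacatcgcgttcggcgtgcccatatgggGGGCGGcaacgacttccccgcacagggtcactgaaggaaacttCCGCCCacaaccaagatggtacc

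Bid: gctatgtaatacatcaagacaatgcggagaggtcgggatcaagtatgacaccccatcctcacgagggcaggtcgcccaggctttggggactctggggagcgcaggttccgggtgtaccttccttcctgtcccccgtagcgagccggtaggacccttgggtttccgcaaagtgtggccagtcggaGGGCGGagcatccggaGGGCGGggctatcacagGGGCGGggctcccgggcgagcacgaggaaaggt

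Bmf: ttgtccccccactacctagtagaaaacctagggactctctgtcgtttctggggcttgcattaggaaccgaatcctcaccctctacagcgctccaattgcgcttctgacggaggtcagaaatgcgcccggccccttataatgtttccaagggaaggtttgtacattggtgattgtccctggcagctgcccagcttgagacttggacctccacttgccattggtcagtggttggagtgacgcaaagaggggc

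The Bad window held 3 GC boxes, beginning 209, 66 and 23 bases before the start, and the Bid window held 3, beginning 66, 50 and 33 bases before it. None of the 3 Bmf windows held this motif, and neither did any of the 3 windows of Bcl2l1, which was called higher. The other Bad window held 0, while the window of Bcl2, which was not called, held 7. GC boxes thus did not follow the direction of the calls. Across the family, all 10 members matched in 16 windows, and 8 of those windows (50%), from 7 members, held a GC box, compared with 32.7% of all 32851 windows. The forkhead motif GTAAACA, searched on both strands, occurred in 1 member window, upstream of Bcl2l11, and in 3.17% of all windows. The E-box CACGTG, which reads the same on both strands, occurred in no member window and in 6.02% of all windows. These searches did not overlap in the letters they matched in the printed windows. A match describes letters in a window and not a bound site.

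Ing4 itself was examined first as a check of the labels. WT libraries held 247, 162 and 247 Ing4 counts and ING4-/- libraries 0, 24 and 76, with a log2 fold change of -4.49 (SE 1.56, adjusted p = 0.0373, edgeR), and the adjusted p was 0.0817 with background subtracted and 0.0783 with population as a block. The counts left in ING4-/- ST-HSCs and MPPs cannot be told apart from reads of a same-strand neighbor that overlaps 34.9% of the exonic sequence of Ing4.

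The libraries differed in more than genotype. Totals were 7839326 to 9363442 counts in WT and 35596876 to 39192588 in ING4-/-, while 36082 to 41763 genes had a count in WT and 14680 to 16188 in ING4-/-. Olfactory and vomeronasal receptor genes, which marrow cells do not use, carried 18.0 to 22.6 counts per kb of exon in WT and at most 0.0879 in ING4-/-. A density estimated from 12455 genes without any ING4-/- count varied with GC content and was lowest in the most GC-rich genes, and the count it predicts for a gene of given length and GC content is called background here. Conversely, of 9571 genes with at least 500 counts in some ING4-/- library, 346, 239 and 155 were at 0 in the 3 populations, compared with 1, 0 and 0 of 4986 such genes in WT. The values of Bcl2l2 and Bmf at 0 in ING4-/- libraries stand beside this count. Stem and progenitor markers summed to 2501 to 3829 CPM, counts scaled to library size, in WT and 3501 to 5524 in ING4-/-. Cd48, at 0 in ING4-/- LT-HSCs, was the only one of 16 without a count in a library. Flt3 had 1 count in the same library, under the floor of 3 counts. Summed granulocyte markers were at 99.8 to 329 CPM in WT and 369 to 670 in ING4-/-, erythroid markers at 44.9 to 198 and 111 to 275, and megakaryocyte markers at 258 to 399 and 281 to 1154. Monocyte markers were at 56 to 91.8 and 0 to 24.3 CPM, B cell markers at 107 to 135 and 66.6 to 125, T and NK cell markers at 57.3 to 139 and 26.9 to 267, and stromal and endothelial markers at 215 to 224 and 97.6 to 160. In WT, 3 to 5 of 8 monocyte, 4 to 5 of 8 B cell and 3 to 6 of 8 T and NK cell markers were above background. The WT sums of these lists thus hold background counts in part. Pax5 and Cd3e were at 0 in all 3 ING4-/- libraries, where Cd79b made up 112 of the 125 CPM of B cell markers in LT-HSCs and Nkg7 all 267 CPM of T and NK cell markers in ST-HSCs. Cd79b was called higher in ING4-/- (1.6, adjusted p = 0.00269, edgeR) and Nkg7 was not called (1.82, adjusted p = 0.159). The part of these differences in the results below was not tested, and in bulk RNA fewer cells of a type and less RNA per cell cannot be told apart.

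The genotype comparison asked which family members differed when the 3 ING4-/- populations were set against the 3 WT populations. Bad, Bid and Bcl2l1 were higher in ING4-/- and Bmf was lower, in a test over 31001 genes with edgeR's quasi-likelihood method and Benjamini-Hochberg adjustment. A call required the adjusted p to be under 0.05 and the log2 fold change to exceed 1 in size. Thus 3 of 10 members were called higher, where 7.98% of all genes tested were, and 1 of 10 was called lower, where 56.7% of all genes were. The median log2 fold change was 0.70 over the 10 members and -6.85 over all genes tested. With the GC-dependent background subtracted, which was chosen after seeing the data, Bad alone stayed called among 8 members tested, and of 19617 genes 5.26% were called higher and 36.9% lower. With at least 10 counts required in every library, Bad was again the only call, with 7 members and 9673 genes tested, beside 8.30% higher and 9.68% lower calls over all those genes. The median there was 0.49 over these 7 members and 0.02 over all genes. With population as a block, 2 members were called higher and 1 lower, beside 6.45% and 54.4% of all genes.

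**Figure D1:**
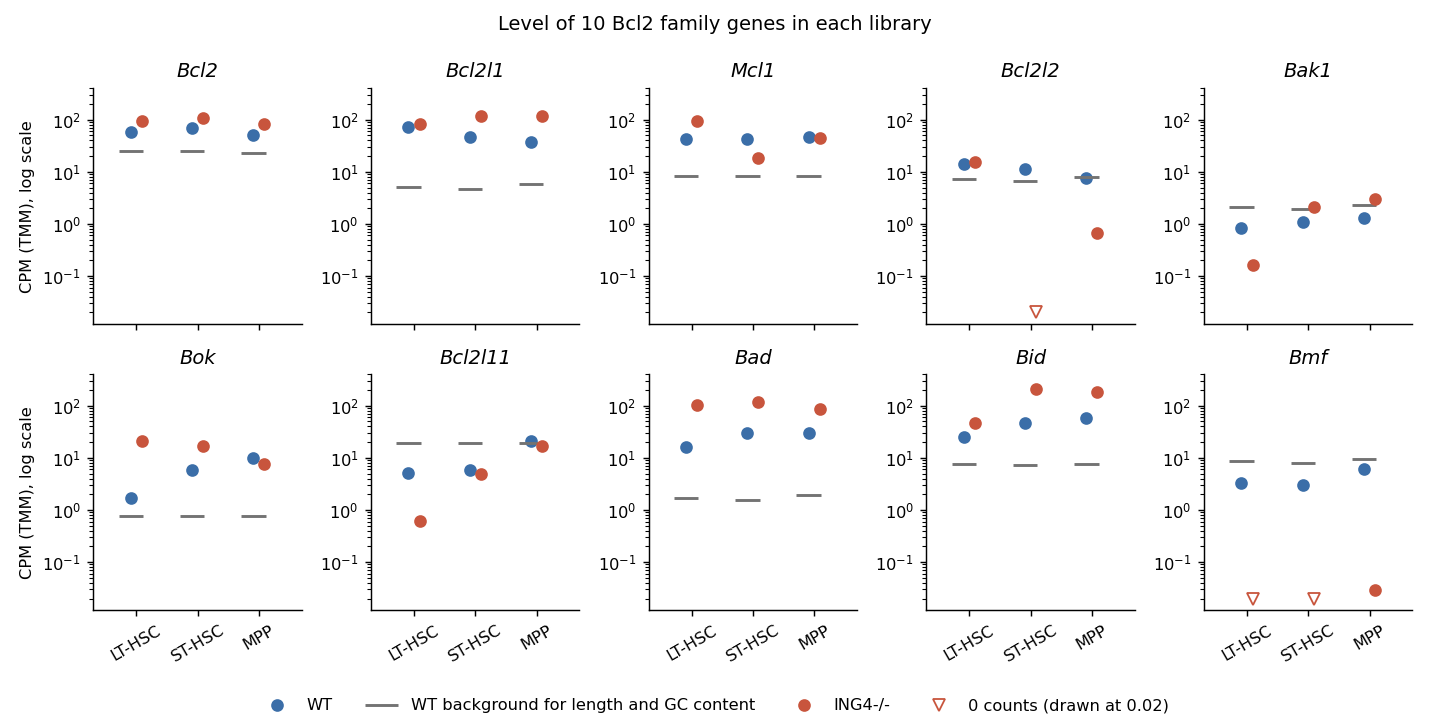
Level of each of the 10 genes in each library as TMM-normalized CPM on a log axis, with WT in blue and ING4-/- in red, and with grey bars for the count that WT background gives a gene of that length and GC content. Bad is higher in every ING4-/- library than in any WT library, while WT values of Bak1 and Bmf lie below the grey bars and Bmf is at 0 in 2 ING4-/- libraries.

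Among pro-survival members, Bcl2 lies on chromosome 1 (106538178 to 106714274, minus strand) and encodes the founding inhibitor of the family. Its level was 59.3, 69.9 and 50.1 CPM in WT and 95.8, 108 and 82.5 CPM in ING4-/-, with 511 to 649 and 2797 to 3412 counts. Every ING4-/- library lay above every WT library, and the populations kept 1 order in both genotypes, with ST-HSCs highest and MPPs lowest. The log2 fold change was 0.67 (SE 0.25, adjusted p = 0.0453, edgeR), short of the minimum fold for a call. WT counts were 2.20 to 2.80 times background, and those of LT-HSCs (2.42) and MPPs (2.20) lay within the spread of background genes, whose 90th percentiles were 2.56 and 2.29. The value depended on scaling and filter, from 0.16 with the minimum of 10 counts in every library to 1.27 (adjusted p = 0.003) with upper-quartile normalization, where Bcl2 was called.

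Bcl2l1 (chromosome 2, 152780668 to 152831728, minus strand) encodes Bcl-xL, which is prominent in erythroid and megakaryocytic survival. It was measured at 73.3, 46.5 and 37.0 CPM in WT and at 80.9, 118 and 119 CPM in ING4-/-. The genotypes did not overlap, but the closest pair was LT-HSCs, where the log2 ratio of ING4-/- to WT was 0.14, against 1.34 and 1.68 in the others. With background subtracted the LT-HSC ratio was -0.52, or -0.41 with the density of receptor genes, while those of ST-HSCs and MPPs stayed positive. The pooled log2 fold change was 1.02 (SE 0.33, adjusted p = 0.0299, edgeR). This call was lost under 14 of 19 other settings, among them with background subtracted (0.36, adjusted p = 0.488), with population as a block (1.06, adjusted p = 0.0601) and without ING4-/- ST-HSCs (0.96, adjusted p = 0.0669), ING4-/- MPPs (0.95, adjusted p = 0.0714), WT ST-HSCs (0.86, adjusted p = 0.135) or WT MPPs (0.68, adjusted p = 0.131). WT counts were 6.23 to 14.5 times background.

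Mcl1 (chromosome 3, 95658788 to 95663176, plus strand) encodes a short-lived pro-survival protein, and its level was the most even of the 10 members in WT but not in ING4-/-. It stood at 43.2, 43.2 and 45.9 CPM in WT, and at 93.8, 18.4 and 44.1 CPM in ING4-/-. ING4-/- LT-HSCs were thus above and ING4-/- ST-HSCs below all WT libraries, and ING4-/- MPPs lay within the WT range. The coefficient of variation over populations was 3.59% in WT and 73.5% in ING4-/-. The pooled log2 fold change of 0.24 (SE 0.56, adjusted p = 0.734, edgeR) did not pass, and its sign changed under 10 of 19 other settings, from -0.55 to 0.83.

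Bcl2l2 (chromosome 14, 54883377 to 54888234, plus strand), encoding Bcl-w, had few counts. They were 133, 107 and 79 in WT and 478, 0 and 23 in ING4-/-. ING4-/- LT-HSCs were at 15.3 CPM against 14.0 in WT LT-HSCs, while the other ING4-/- populations were under all WT libraries, and ST-HSCs were under the floor of 3 counts, or 0.0949 CPM. The log2 fold change was -1.06 (SE 1.80, adjusted p = 0.639, edgeR). Without ING4-/- LT-HSCs it was -4.97 and passed (adjusted p = 0.0215). WT counts were only 0.966 to 1.91 times background, within the range of genes that had no ING4-/- counts at all, whose 10th and 90th percentiles were 0 and 2.56 times background in LT-HSCs.

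Bak1 and Bok, the effectors among the 10 members, together had the fewest counts per kb of the 3 roles in every library. Bax, another effector, was not on the list and had more counts than either in every library. Bak1 (chromosome 17, 27019810 to 27029009, minus strand), one of the main pore formers, had 8, 10 and 13 counts in WT and 5, 67 and 102 in ING4-/-. In CPM the ING4-/- LT-HSCs, at 0.160, were below the WT range of 0.842 to 1.28, and ING4-/- ST-HSCs and MPPs, at 2.12 and 3.01, were above it. All WT counts were below background, at 0.405 to 0.568 of it, so Bak1 transcripts could not be told apart from background in WT at this depth. Subtracting background left WT at 0, so a ratio to it could not be negative and gives no direction for Bak1. The log2 fold change was 0.72 (SE 0.93, adjusted p = 0.533, edgeR).

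Bok (chromosome 1, 93685660 to 93695764, plus strand), an effector related to Bak that is less tightly held by pro-survival members, followed opposite orders in the genotypes. It had 16, 54 and 101 counts in WT, or 1.68, 5.81 and 9.91 CPM, and 659, 524 and 253 counts in ING4-/-, or 21.1, 16.6 and 7.46 CPM. WT was highest in MPPs and ING4-/- was highest in LT-HSCs, and the ranges overlapped, since ING4-/- MPPs lay below WT MPPs. The log2 ratio of ING4-/- to WT was 3.57 in LT-HSCs, 1.5 in ST-HSCs and -0.41 for MPPs, from 1 library pair each, and the pooled value of 1.37 (SE 0.80, adjusted p = 0.175, edgeR) did not pass. WT counts were 2.17, 7.59 and 13.0 times background in the 3 populations, which places the WT LT-HSC value within the spread of background genes.

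Bad (chromosome 19, 6941861 to 6951898, plus strand), the BH3-only protein that growth factor signaling keeps phosphorylated and inactive, was the only member called higher in most settings. It had 156, 281 and 307 counts in WT, or 16.4, 30.3 and 30.1 CPM. In ING4-/- it had 3246, 3765 and 2876 counts, or 104, 119 and 84.8 CPM. The lowest ING4-/- library was above the highest WT library, and means were 103 ± 17.2 CPM in ING4-/- and 25.6 ± 7.94 in WT (SD, n = 3 populations). The log2 fold change was 2.00 (SE 0.34, adjusted p = 0.00143, edgeR), with ratios of 2.65, 1.97 and 1.49 in the single populations. It was 1.30 (SE 0.36, adjusted p = 0.0210) after subtraction of GC-dependent background, of which WT counts were 9.47 to 19.1 times. Across 19 other settings it ranged from 1.11 to 2.6 and passed in 17. The exceptions were removal of the trend on gene length after the minimum of 10 counts (1.11, adjusted p = 0.0691) and background subtraction together with population as a block (1.35, adjusted p = 0.0873). Bad shares 25.8% of its exonic bases with Gpr137 on the opposite strand, and the strand setting of the counting is not given in the sources used here. Gpr137, added for this reason after the values of Bad were seen, had 97 to 200 counts in WT and 169 to 1055 in ING4-/- and a log2 fold change of 0.44 (adjusted p = 0.625, edgeR).

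Bid (chromosome 6, 120891930 to 120916853, minus strand) links death receptors to mitochondria once caspase 8 cleaves it. It had 24.7, 46.2 and 57.5 CPM in WT and 46.1, 207 and 180 CPM in ING4-/-. ING4-/- ST-HSCs and MPPs were above all WT libraries, and ING4-/- LT-HSCs lay within the WT range. The log2 fold change was 1.76 (SE 0.59, adjusted p = 0.0336, edgeR), with ratios of 0.90, 2.16 and 1.65. It was positive under all 19 other settings, from 1.10 to 2.35, but passed in 5 of them. Leaving out any single library other than ING4-/- LT-HSCs ended the call (1.42 to 1.86, adjusted p = 0.0663 to 0.0885, edgeR), and without ING4-/- LT-HSCs it was 2.21 (adjusted p = 0.00179). With population as a block it was 1.57 (adjusted p = 0.0369), and with background subtracted it was 1.23 (adjusted p = 0.158). Bid shares 17.7% of its exonic bases with Bcl2l13 on the opposite strand, which had a log2 fold change of 0.85 (adjusted p = 0.0555, edgeR).

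Bcl2l11 (chromosome 2, 128126038 to 128162547, plus strand) encodes Bim, a BH3-only protein that binds every pro-survival member. It had 49, 55 and 211 counts in WT and 19, 154 and 584 in ING4-/-, or 5.16, 5.92 and 20.7 CPM and 0.607, 4.87 and 17.2 CPM. Both genotypes were highest in MPPs and lowest in LT-HSCs, and their ranges overlapped. The log2 fold change was -0.49 (SE 1.16, adjusted p = 0.741, edgeR). WT counts were 0.263 and 0.301 of background in LT-HSCs and ST-HSCs and 1.07 times in MPPs. Subtraction therefore set WT to 0 in LT-HSCs and ST-HSCs, where a ratio to it could not be negative. The fitted value was then 3.27 (SE 1.96, adjusted p = 0.238, edgeR), with its sign largely fixed beforehand.

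Bmf (chromosome 2, 118528757 to 118549687, minus strand) encodes a BH3-only protein tied to the cytoskeleton and to loss of attachment. It had 31, 28 and 62 counts in WT and 0, 0 and 1 in ING4-/-. No ING4-/- library reached the floor of 3 counts, although these libraries were the more deeply sequenced. Scaled to effective library size, the summed 121 WT counts against 1 ING4-/- count give a WT level 404 times that of ING4-/- (95% exact interval 71.2 to 16103, for counting error only). The fitted log2 fold change of -8.00 (SE 1.02, adjusted p = 6.6e-04, edgeR) stood among the 56.7% of genes called lower. WT counts were 0.378 to 0.644 of background, so Bmf was not above the counts that genes without ING4-/- counts carried in WT at its length and GC content, and with background subtracted too few counts were left for a test.

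**Figure D2:**
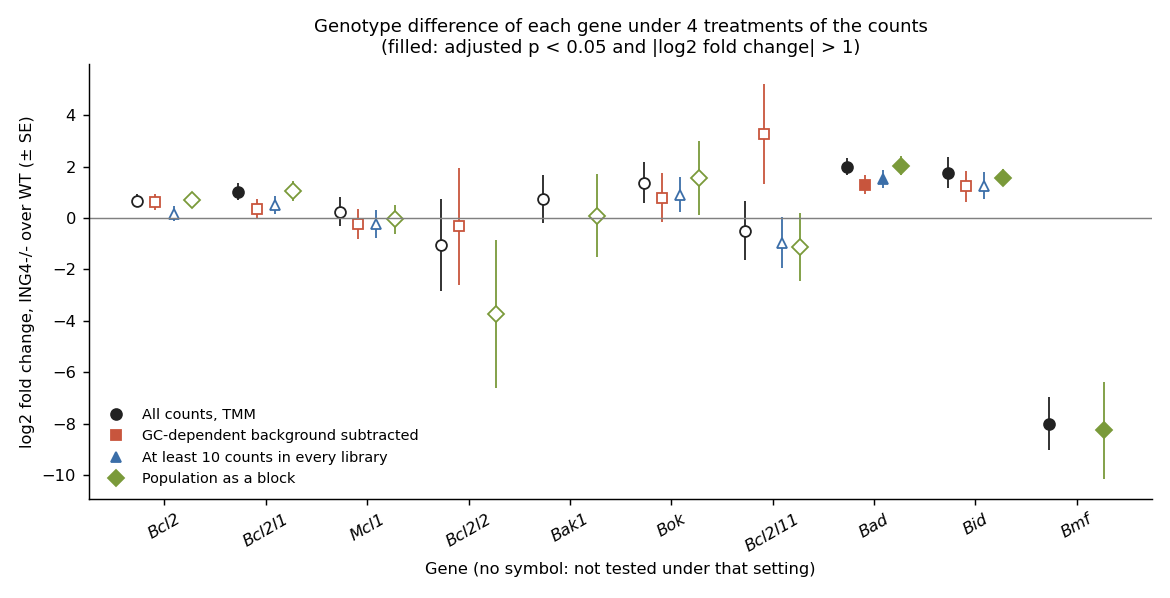
Log2 fold change of ING4-/- over WT with SE for each gene, with all counts (black), after subtraction of GC-dependent background (red), with at least 10 counts in every library (blue) and with population as a block (green), where filled symbols were called. Bad is filled under all 4 treatments at 1.30 to 2.04, and Bcl2l11 and Mcl1 change sign between them.

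The share of each role within a library does not depend on scaling between libraries. It can depend on a difference between genotypes that follows gene length, and no such trend was removed from it. Counts per kb of exon were summed over the 10 members, and the pro-survival share was 68.4%, 50% and 41.3% in WT. In ING4-/- it was 43.6%, 25.0% and 32.3%. Each ING4-/- population had a lower pro-survival share than its WT counterpart, and the ranges overlapped, since ING4-/- LT-HSCs exceeded WT MPPs. Means were 53.2 ± 13.8% in WT and 33.7 ± 9.35% in ING4-/- (SD, n = 3 populations), and after background subtraction the WT mean was 52.2%. BH3-only members took 29.4%, 44.5% and 50.2% in WT and 47.9%, 69.2% and 64.1% in ING4-/-. No test was made for this share, since its members were chosen with results known.

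Bad and Bid carried most of the BH3-only share. Bad held 14.6%, 22.8% and 21.6% of the family in WT and 38.2%, 34.7% and 28.5% in ING4-/-, every ING4-/- value being above every WT value. Bid held 12.5%, 19.7% and 23.3% in WT and 9.61%, 34.1% and 34.2% in ING4-/-, so in LT-HSCs its share was not above that of WT. Mcl1 held 19.1% to 22.6% in WT and 20.3%, 3.15% and 8.70% in ING4-/-. Bcl2 held 7.87% to 11.6% in WT and 6.07% to 7.74% in ING4-/-, and Bcl2l1 11.6% to 28.6% and 13.0% to 17.5%. Effectors held 2.26% to 8.50% in WT and 3.57% to 8.51% in ING4-/-, most of it Bok. Bax is not among the 10 members and is left out of all these shares. It had 291 to 550 counts in WT and 2265 to 2959 in ING4-/- over 1576 exonic bases. The shares therefore describe the list and not the whole family.

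**Figure D3:**
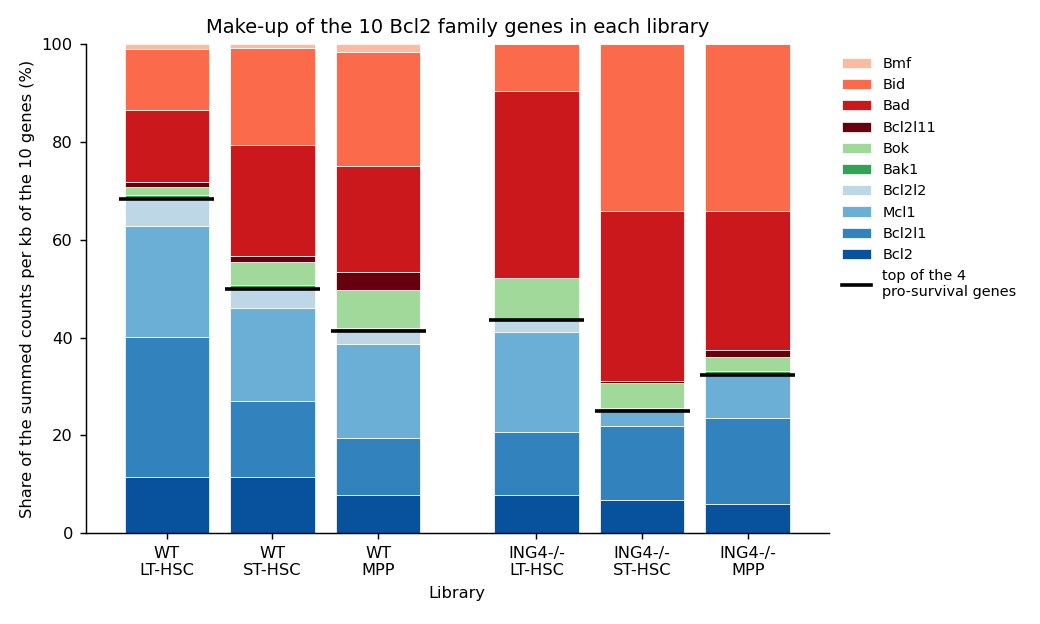
Share of the summed counts per kb of exon of the 10 genes in each library, stacked from pro-survival members (blue) through effectors (green) to BH3-only members (red), with a black line at the top of the pro-survival share. The line stands at 68.4%, 50% and 41.3% in WT and at 43.6%, 25.0% and 32.3% in ING4-/-.

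Within-library log2 ratios of level per kb set single partners against each other. Bad to Mcl1 was -0.63, 0.26 and 0.16 in WT and 0.91, 3.46 and 1.71 in ING4-/-, all of the ING4-/- values being above all of the WT values. Bcl2 to Mcl1 was -0.96, -0.73 and -1.29 in WT and -1.39, 1.13 and -0.52 in ING4-/-, overlapping since ING4-/- LT-HSCs lay below all WT values. Bcl2l11 to Mcl1, the ratio of Bim to one of its main binders, was -4.30, -4.10 and -2.38 in WT and -8.50, -3.15 and -2.59 in ING4-/-. The WT values of this last ratio in LT-HSCs and ST-HSCs rest on Bcl2l11 counts below background.

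In CPM per kb, the order of levels in WT was Mcl1 (12.9 ± 0.463), Bad (12.8 ± 3.96), Bid (12.1 ± 4.69), Bcl2l1 (11.4 ± 4.11), Bcl2 (6.53 ± 1.08) and Bok (3.15 ± 2.23), followed by Bcl2l2, Bcl2l11, Bmf and Bak1 at 2.49 to 0.442 (SD over 3 populations). The first 4 did not differ beyond their spread, and Bcl2 lay below every library's Mcl1, Bad and Bcl2l1. In ING4-/- the order was Bad (51.1 ± 8.56), Bid (40.7 ± 24.3), Bcl2l1 (23.1 ± 4.72), Mcl1 (15.2 ± 11.2), Bcl2 (10.4 ± 1.39) and Bok (8.17 ± 3.77). Bad and Bid overlapped there, Bcl2l1 lay below Bad in every library, and Mcl1, Bcl2 and Bok overlapped. Bcl2l2, Bcl2l11 and Bak1 had means of 1.19, 0.942 and 0.732 CPM per kb, and each lay below Bok in every library.

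The second comparison asked which members differed between MPPs and LT-HSCs with genotype as a covariate. No member was called, and of 36170 genes tested 0 were called (0%) with edgeR, while 564 had an unadjusted p under 0.05 and DESeq2 called 473 of 23019 genes, none of them a member. Bid, at 1.56 on the log2 scale (SE 0.40, unadjusted p = 0.0099, adjusted p = 1, edgeR), was the only member with an unadjusted p under 0.05. Its level was higher in MPPs than in LT-HSCs in both genotypes, by 1.21 in WT and 1.96 in ING4-/-. Bcl2l11 had a larger but less even difference of 3.17 (SE 1.68, adjusted p = 1), made of 1.98 in WT and 4.62 in ING4-/-.

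For 4 members the MPP to LT-HSC difference had opposite signs in the genotypes, also with GC-dependent background subtracted. Bok was at 2.49 in WT and -1.49 in ING4-/- on the log2 scale, Bcl2l1 at -0.98 and 0.56, Mcl1 at 0.09 and -1.09, and Bad at 0.87 and -0.29. Bcl2 was nearly level in both, at -0.24 and -0.22. These are single library pairs, and the difference between genotypes was not tested.

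**Figure D4:**
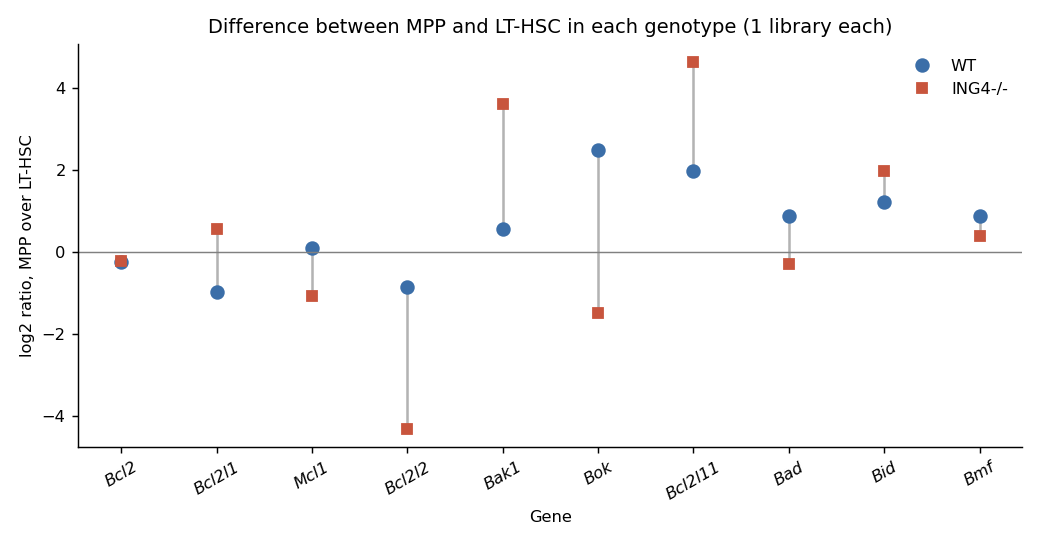
Log2 ratio of MPPs over LT-HSCs for each gene in WT (blue circles) and ING4-/- (red squares), 1 library each, from TMM-normalized CPM with a prior count of 2. Bok runs from 2.49 in WT to -1.49 in ING4-/-, while the Bcl2 points coincide near -0.23.

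Other family genes and the neighboring steps of the pathway were described from lists, beside 7.98% of all genes called higher and 56.7% called lower. With GC-dependent background subtracted these shares were 5.26% and 36.9%. Of 15 further Bcl2 family genes, 14 were tested, 3 were called higher and 5 lower, and with background subtracted none of 7 tested was called. Bax, the other main effector, had 396, 291 and 550 counts in WT and 2267, 2959 and 2265 in ING4-/-. Its log2 fold change of 0.87 (SE 0.31, adjusted p = 0.0417, edgeR) was short of the minimum fold and was 0.11 with background subtracted. Bbc3, encoding Puma, had 4, 16 and 35 counts in WT and 225, 8 and 295 in ING4-/-, overlapping between genotypes (1.53, adjusted p = 0.320). Pmaip1, encoding Noxa, had 20, 44 and 47 counts in WT and 0 in every ING4-/- library, and Bcl2a1a had 4, 11 and 9 and 0 throughout, both called lower by edgeR and, as Bmf, without enough counts for a test after background subtraction. Bcl2a1b and Bcl2a1d, near-identical copies of Bcl2a1a whose reads may have been split between them, had ING4-/- counts in MPPs alone, 114 and 64.

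Among 18 genes of mitochondrial outflow and the apoptosome, 7 were called higher and 1 lower, and 2 and 1 after background subtraction. Cycs, cytochrome c, was higher by 1.83 (SE 0.32, adjusted p = 0.00166, edgeR), from 424 to 689 counts in WT and 4696 to 9164 in ING4-/-. Birc6, a large inhibitor of apoptosis, was lower by 1.74 on the same scale (fitted value -1.74, SE 0.28, adjusted p = 0.00103). Cycs and Birc6 stayed called with background subtracted, at 1.26 and -1.47. With population as a block as well, no gene of this list was called lower, so the call of Birc6 was lost. It was also lost with the minimum of 10 counts and the length trend removed, where 0 of 16 genes tested were called lower. Birc6 has 28830 exonic bases. Of 8 death receptor genes 3 were called higher and 1 lower, and none after subtraction. The higher genes were Tradd (1.51), Tnfrsf1a (1.45) and Casp8 (1.20), the caspase that cleaves Bid, with adjusted p-values of 0.0136, 0.00194 and 0.0038 (edgeR). Of 27 upstream regulators of the family, 6 were called higher and 3 lower, and 2 and 3 after subtraction. Dynll1, the dynein light chain that tethers Bim, was at 2.29 (SE 0.33, adjusted p = 7.4e-04, edgeR), and Tpt1, a binding partner of Mcl1 and Bcl-xL, at 2.12 (SE 0.19, adjusted p = 6.6e-04). Mapk8, the kinase JNK1 that phosphorylates Bim and Bmf, was at -2.41 (SE 0.46, adjusted p = 0.00241). These 3 also stayed called after subtraction, at 1.71, 1.35 and -2.21, but with population as a block as well 0 upstream regulators were called lower, so the call of Mapk8 was lost.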

How the data were processed

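Sorted LT-HSC, ST-HSC and MPP populations of pooled marrow were sequenced on an Illumina HiSeq by GENEWIZ. The authors deposited raw counts, whole numbers of reads assigned to each gene without normalization. The submitters' processing notes name mm10, and the aligner, the counting program and the strand setting are not given in the sources used here. Groups were taken from the genotype label, and populations from the titles. Gene names, positions and GC content came from GENCODE for GRCm38, where 48970 of 49315 identifiers were found, and promoter sequence came from RefSeq (GRCm38.p6). The members and gene lists were chosen with earlier results of these data known.

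Counts were tested in edgeR 4.0.16 (R 4.3.3, limma 3.58.1) with TMM normalization, filterByExpr and the quasi-likelihood F test, adjusted by Benjamini-Hochberg over all genes tested. A call needed both an adjusted p below 0.05 and a log2 fold change larger than 1 in size. CPM values are TMM-scaled, and ratios within a population used a prior count of 2. Background was the counts per base of receptor genes, or, chosen after seeing the data, of 12455 genes of at least 1000 exonic bases with no ING4-/- count, in 13 classes of GC content, times exonic length. Libraries of a population deviated together from their genotype means over 9673 genes (r = 0.143, 0.110 and 0.121 in the order LT-HSC, ST-HSC, MPP). The populations were taken to pair the libraries on this ground, and one alternative fit had population as a block. No pair of libraries within a genotype was a duplicate deposit (chi-square per degree of freedom at least 14.1). The other alternatives were DESeq2 1.42.0, its size factors, upper-quartile normalization, no filter, a minimum of 10 counts in every library with and without removal of the trend on gene length (loess span 0.5), subtraction of receptor background, a prior count of 0.5, and leaving out each library or population. The fits were tested on simulated counts.

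The floor for a count of 0 was set at 3 counts, between 0.0884 CPM (ING4-/- MPPs) and 0.323 CPM (WT ST-HSCs) on the TMM scale. Because no molecular identifiers were used, floors and intervals describe counting error alone. The text gives all 10 members, Bax, Bbc3, Pmaip1, the Bcl2a1 genes and Ing4, of each pathway list the 3 called genes with the largest absolute log2 fold change and at least 10 counts in every library, and marker lists by their sums. Some genes that this rule names are not reported here.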

Additional observations from a re-analysis of the deposited data

Results flagged for a closer look

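Mcl1 moved in opposite directions between genotypes in different populations. ING4-/- minus WT on the log2 scale came to 1.12 for the LT-HSC pair and -1.22 for the ST-HSC pair, with 1 library of each genotype behind each ratio. Bak1 did the same, at 1.18 in MPPs and -1.88 in LT-HSCs, where the WT counts of 8 and 13 were below background. With receptor or GC-dependent background subtracted, WT Bak1 was at 0, so a ratio to it could not be negative whatever ING4-/- held. The values of 1.36 and 1.35 in LT-HSCs and 4.87 and 4.88 in MPPs therefore cannot decide whether the directions were opposite. For neither gene was the difference between populations tested, since no population had a second library of a genotype.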

How the results depend on the processing

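The number of genes called between genotypes, 20041, was 1739 with at least 10 counts in every library, 1057 with the length trend also removed, 8797 with receptor background and 8272 with GC-dependent background subtracted. Under each of these 1 member was called higher and 0 lower, in place of 3 and 1. The higher call was Bad, except that it was Bcl2 once the length trend was removed (1.13, adjusted p = 0.0364, edgeR). DESeq2, or its size factors in edgeR, also left 1 member called higher. With population as a replicate block, 2 members were higher and 1 lower, Bcl2l1 being lost, and with GC-dependent background subtracted as well 332 genes and 0 members were called in either direction. Leaving out single libraries or populations gave 1 to 3 members higher and 1 to 2 lower. Bid was called only when LT-HSCs of ING4-/- or of both genotypes were the ones left out, Bcl2l1 also without WT LT-HSCs, and Bcl2l2 was lower (-4.97, -4.76) without ING4-/- LT-HSCs or the population.

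Mcl1 turned from 0.24 to -0.25 (minimum of 10 counts), -0.35 (length trend removed), -0.07 (DESeq2), -0.09 (its size factors), -0.05 (replicate block), -0.28 and -0.24 (receptor and GC-dependent background) and -0.55 (the latter with the replicate block), and ranged from -0.47 to 0.67 over left-out libraries. Bcl2l11 turned from -0.49 to 1.08 and 3.27 with receptor and GC-dependent background subtracted, 4.98 with the replicate block added and 0.08 with upper-quartile normalization, and ranged from -1.92 to 0.30 over left-out libraries. Bcl2l2 turned to 1.12 with receptor background subtracted. Subtraction set WT Bcl2l11 to 0 in LT-HSCs and ST-HSCs, and subtraction of receptor background set WT Bcl2l2 to 0 in MPPs. A ratio to WT could not be negative there, so these turns with subtraction were partly fixed beforehand. The cause of the other sign changes was not tested.

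Between MPPs and LT-HSCs, DESeq2 called 473 genes and the minimum of 10 counts left 2, in place of 0. Over left-out libraries the difference ranged from -0.89 to 0.34 for Bcl2l1, -1.47 to 0.41 for Mcl1, -5.40 to 1.02 for Bcl2l2, -1.12 to 2.15 for Bok and -0.31 to 0.76 for Bad, none of them called.

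The median log2 ratio within a population over the members, 0.42, 0.77 and 0.33, was 1.01, 1.03 and 0.82 with receptor background subtracted, and 0.68 for LT-HSCs and 0.98 for MPPs with GC-dependent background subtracted. Normalization shifted the median of all genes from -6.85 to -7.17 with DESeq2 size factors and -6.35 with upper quartiles, and the share of calls that were higher from 12.3% to 6.91% and 21.0%. WT depth and background limit Bak1, Bmf, Bcl2l2 and Bcl2l11, and also Bcl2 in LT-HSCs and MPPs and Bok in LT-HSCs, and no value had a second library of its genotype and population.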
